A study of Homo sapiens with 12 samples.

Results

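Cell attachment to the basement membrane was examined through 38 genes for integrins, laminins, type IV collagens, other basement membrane components, hemidesmosomes and focal adhesions. The list was drawn up by gene function, with earlier results of these data known. All 38 genes were found in the count table of 23459 genes. The libraries came from MCF10A, a human mammary epithelial line that does not form tumors, and every group carried a doxycycline-inducible YAP5SA allele, a form of the coactivator YAP that the Hippo kinases cannot inactivate. The cells had been infected with an empty vector or with a JUN overexpression vector and received solvent (EtOH) or doxycycline (Dox, 100 ng/ml). This gave 4 groups named by vector and treatment (vector EtOH and vector Dox, JUN EtOH and JUN Dox) with 3 libraries each, described in the study's methods as biological replicates. Dox and YAP5SA always came together, so an effect of the drug itself and an effect of YAP5SA cannot be told apart.

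Integrins are receptors made of 1 alpha and 1 beta chain that span the plasma membrane. Outside the cell they hold laminins, collagens or fibronectin, and inside they recruit talin, kindlins, paxillin and focal adhesion kinase, which connect them to actin. Epithelial cells have a further anchor, the hemidesmosome, in which the integrin of ITGA6 and ITGB4 and the transmembrane collagen COL17A1 bind laminin outside and plectin and dystonin inside, where keratin filaments attach. The basement membrane is a sheet of laminin and type IV collagen networks joined by nidogens and the proteoglycans perlecan and agrin. YAP responds to attachment and tension, and JUN is a subunit of the transcription factor AP-1.

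Library totals ran from 18594867 to 28993487 counts. All 9 markers listed for basal mammary epithelium were above 3 counts in at least 1 library. Their summed level was 8983 to 9610 CPM (counts scaled to library size by TMM) in vector EtOH, 5120 to 6113 CPM in vector Dox, 9515 to 10920 CPM in JUN EtOH and 5983 to 8484 CPM in JUN Dox. That sum includes LAMB3 and ITGB4. From vector EtOH to JUN EtOH the mean of LAMB3 went from 1444 to 3566 CPM and that of ITGB4 from 758 to 449 CPM. Means of KRT14 and TP63 were also higher in JUN EtOH, while that of KRT17 changed little (1662 to 1704 CPM) and its libraries overlapped. Means of KRT5 (4615 to 3521 CPM), CDH1, CDH3 and EPCAM were lower, with overlapping libraries for CDH1, so the sum does not stand for each marker. The 6 luminal markers, with PGR at the floor of 3 counts in every library, summed to 1282 to 1472, 1522 to 1543, 708 to 930 and 511 to 883 CPM in the same order. Summed levels were 2.18 to 10.7 CPM over all libraries for 5 fibroblast markers (COL1A2 and COL3A1 at the floor) and 0.100 to 2.10 CPM for 3 endothelial markers (CDH5 at the floor). Of the 3 leukocyte markers PTPRC and CD3E were at the floor, and the sum of 17.0 to 93.4 CPM came from CD68. The part of these markers in the results below was not tested, and in bulk RNA fewer cells of a kind and less RNA per cell cannot be told apart. Vector Dox replicate 1 stood apart within its group: its chi-square per degree of freedom against the other vector Dox libraries was 60.9 and 48.8, against 9.35 between those. It was the lowest of its group in 30 of the 37 adhesion genes that passed the filter on low counts, with a median of 0.790 times the mean of the other 2 libraries. Other groups were uneven too. JUN Dox replicates 1 and 3 lay 51.1 apart on the same scale, with replicate 2 at 21.5 and 14.3 from them. Vector EtOH replicate 1 was the highest of its group in 28 of the 37 genes, and vector EtOH replicate 2 the lowest in 25. Calls for these genes that changed when vector Dox replicate 1 was left out are also given without it, as are some of the sizes that changed.

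The manipulated genes were checked first. JUN had 55.0, 35.5 and 52.2 CPM in vector EtOH, 188 to 194 CPM in vector Dox, 1064 to 1399 CPM in JUN EtOH and 1146 to 1325 CPM in JUN Dox. JUN itself was thus 3.98-fold higher on induction in vector cells (log2 fold change 1.99, adjusted p = 3.09e-07). YAP1, whose counts can include the YAP5SA transcript, was 1.32-fold higher on induction in vector cells, which did not pass the test (adjusted p = 0.0819).

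Sequences before the transcription start are shown for 3 genes on which the results below turn: LAMA3 and LAMB3, chains of the laminin that hemidesmosomes bind, and ITGA5, an alpha chain that was lower on YAP5SA induction and higher with JUN. Each is the 250 bases before the RefSeq start on GRCh38.p14, 5′ to 3′ along the gene, at chr18:23872770-23873019 (plus strand), chr1:209652426-209652675 (minus strand) and chr12:54419267-54419516 (minus strand), in the order below. Capitals mark the letters TGANTCA, bound by AP-1, or GGAATG, bound by TEAD factors, searched on both strands, where N is any base. The LAMA3 window lies within the gene, in sequence that 3 of its 15 annotated transcripts span as intron, and no annotated exon overlaps any of the 3 windows (exact match of each window to GRCh37).
LAMA3: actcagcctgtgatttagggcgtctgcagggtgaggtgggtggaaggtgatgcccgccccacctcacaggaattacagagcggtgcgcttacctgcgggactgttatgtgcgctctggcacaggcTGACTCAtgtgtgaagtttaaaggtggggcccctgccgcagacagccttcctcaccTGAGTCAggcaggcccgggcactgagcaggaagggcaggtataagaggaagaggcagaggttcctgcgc
LAMB3: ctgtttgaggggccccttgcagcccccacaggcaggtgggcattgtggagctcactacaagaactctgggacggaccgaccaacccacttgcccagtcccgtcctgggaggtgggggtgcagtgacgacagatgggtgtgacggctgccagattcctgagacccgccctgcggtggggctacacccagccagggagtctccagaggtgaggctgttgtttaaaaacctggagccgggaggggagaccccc
ITGA5: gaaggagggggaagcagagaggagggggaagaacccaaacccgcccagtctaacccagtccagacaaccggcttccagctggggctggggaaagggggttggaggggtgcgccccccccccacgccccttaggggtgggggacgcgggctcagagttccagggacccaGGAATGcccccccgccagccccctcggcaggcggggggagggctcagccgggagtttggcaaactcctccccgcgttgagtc
LAMA3 held 2 AP-1 matches, TGACTCA at 125 to 119 and TGAGTCA at 69 to 63 bases before the start. LAMB3 held no match, and ITGA5 held 1 TEAD match at 82 to 77 bases before the start. RefSeq windows were matched for 31 of the 38 genes, not for AGRN, CD151, FERMT1, ITGA3, ITGB4, PLEC and PTK2. LAMA3 was the only one of the 31 with an AP-1 match (3.23%), against 6.6% of all 27305 promoter windows. TEAD letters were in 4 of 31 (12.9%; DST, ITGA5, ITGB1 and VCL) against 11.9% of all windows, and the CRE-like letters TGACGTCA were in 0 of 31 against 1.77%. No match of 1 motif overlapped another. These shares are descriptions of windows before the start and say nothing about more distant sites.

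When YAP5SA was induced in vector cells, 5 integrin and 5 laminin genes fell and no adaptor of focal adhesions was called. Of 37 genes tested, 14 were called (adjusted p under 0.05), 13 lower and 1 higher, which is 37.8%, against 30.1% of all 14775 genes tested. Calls lower were 14.4% of all genes and calls higher 15.6%. The median log2 fold change of the 37 genes was -0.19, against 0.0072 over all genes. In 19 of the 37 genes the vector EtOH and vector Dox libraries did not overlap, which held for 43.9% of all genes. Without vector Dox replicate 1, 11 genes were lower and 2 higher. Without vector EtOH replicate 1, 9 were called, 8 lower and 1 higher.

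JUN overexpression without induction went mostly upward. Of the 37 genes, 25 were called (67.6%), 23 higher and 2 lower, against 39% of all genes called, 20.1% higher and 18.9% lower. The median log2 fold change was 0.40, against 0.00056 over all genes, and in 30 of 37 genes the vector EtOH and JUN EtOH libraries did not overlap, against 57.8% of all genes. The 2 genes called lower were ITGB4 and COL7A1.

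Induction of YAP5SA in JUN cells gave 10 calls of 37 (27%), all 10 lower, against 21.4% of all genes called, 11.2% higher and 10.3% lower. The median was -0.30, against 0.0032 over all genes, and 16 of 37 genes had JUN EtOH and JUN Dox libraries that did not overlap, against 39.3%. JUN overexpression during induction gave 22 calls (59.5%), 21 higher and 1 lower (ITGB5), against 35.6% of all genes called, 18.4% higher and 17.2% lower. Its median was 0.47, against 0.0030, and 23 of 37 genes had vector Dox and JUN Dox libraries that did not overlap, against 43.4%. Without vector Dox replicate 1, 19 genes were called higher and 4 lower. Comparisons that share a group, such as induction and JUN overexpression in the vector EtOH libraries, are not independent of each other, and their values are set side by side below without a test of overlap. Counts for smaller sets of these genes below are to be read against the shares of all genes given above for each comparison.

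**Figure D1:**
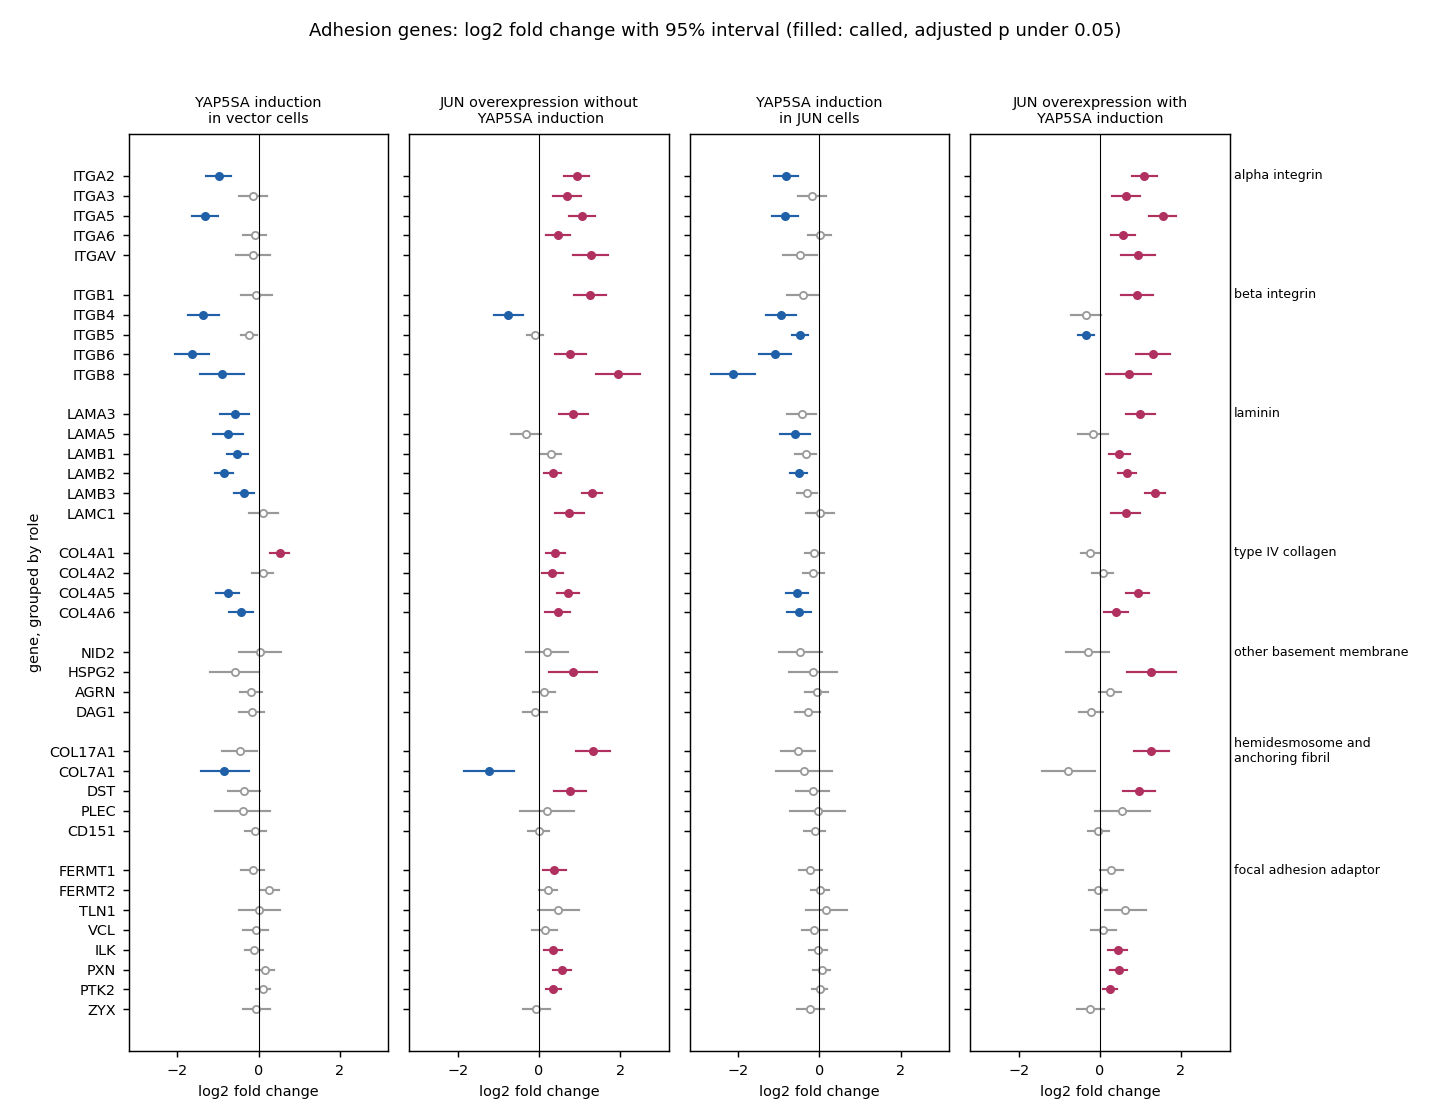
Log2 fold change (x axis) of the 37 adhesion genes tested (y axis, grouped by role) in the 4 pairwise comparisons, with bars for the 95% interval and filled symbols for called genes. Called genes lie left of 0 in 13 of 14 cases for YAP5SA induction in vector cells and right of 0 in 23 of 25 cases for JUN overexpression without induction.

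The alpha integrins fell on induction only in part and rose together with JUN. Of 5 alpha chains, 2 were called lower on induction in vector cells and 2 in JUN cells, in each case ITGA2 and ITGA5, while 5 of 5 were called higher with JUN in either setting. ITGA5 (GRCh37 chromosome 12, 54789045 to 54813050, minus strand) encodes the alpha chain of the main fibronectin receptor. It had 243, 212 and 225 CPM in vector EtOH, 73.3, 97.0 and 101 CPM in vector Dox, 457, 433 and 529 CPM in JUN EtOH, and 208, 276 and 307 CPM in JUN Dox. Every vector Dox library lay under every other library. The change on induction was 2.50-fold lower in vector cells (log2 fold change -1.32, SE 0.15, adjusted p = 1.31e-05) and 1.79-fold lower in JUN cells (-0.84, SE 0.15, adjusted p = 0.00106). JUN raised ITGA5 2.09-fold without induction (1.06, SE 0.15, adjusted p = 8.81e-05) and 2.92-fold with it (1.54, SE 0.15, adjusted p = 2.76e-06). Without vector Dox replicate 1 the fall in vector cells was -1.20 and the JUN effect under induction 1.42.

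ITGA2 (GRCh37 chromosome 5, 52285170 to 52390609, plus strand), the alpha chain of a collagen receptor, moved in the same directions at a lower level. Its levels were 51.1, 40.0 and 47.1 CPM in vector EtOH, 19.9, 26.3 and 23.8 CPM in vector Dox, 104, 82.6 and 77.0 CPM in JUN EtOH, and 56.1, 49.4 and 43.6 CPM in JUN Dox. The JUN Dox range thus overlapped the vector EtOH range, with vector Dox below both and JUN EtOH above both. Induction lowered ITGA2 1.98-fold in vector cells (log2 fold change -0.98, SE 0.15, adjusted p = 0.00013) and 1.77-fold in JUN cells (-0.83, adjusted p = 0.000773). With JUN it was 1.91-fold higher without induction (0.93, adjusted p = 0.00016) and 2.13-fold higher with it (1.09, SE 0.15, adjusted p = 4.7e-05).

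ITGAV, the alpha chain that pairs with ITGB1, ITGB5, ITGB6 and ITGB8 in receptors for RGD-containing ligands, had 91.3, 72.3 and 81.4 CPM in vector EtOH, 69.4, 80.8 and 71.2 CPM in vector Dox, 233, 194 and 163 CPM in JUN EtOH, and 194, 133 and 97.6 CPM in JUN Dox. JUN libraries lay above vector libraries, and the JUN Dox libraries were widely spread. JUN raised it 2.41-fold without induction (log2 fold change 1.27, SE 0.20, adjusted p = 0.000185) and 1.92-fold with it (0.94, adjusted p = 0.00201). On induction its log2 fold change was -0.15 (adjusted p = 0.621) in vector cells and -0.48 (adjusted p = 0.0974) in JUN cells. The last value was -0.77 and passed the test (adjusted p = 0.0042) without JUN Dox replicate 1. The fall of ITGAV in JUN cells also passed with replicate number as a block in the model. The laminin-binding alpha chains ITGA3 and ITGA6 were called higher with JUN only. ITGA3 was 1.62-fold and 1.56-fold higher without and with induction, and ITGA6 1.38-fold and 1.49-fold. ITGA3 is also the only 1 of the 38 genes on the list of top YAP-induced genes that the study drew from a separate experiment, which holds 2.71% of all genes tested, and its log2 fold change on induction in vector cells was -0.13 (adjusted p = 0.58).

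The beta integrins went in different directions. Induction lowered 3 of 5 in vector cells and 4 of 5 in JUN cells, and JUN raised 3 and lowered 1 of 5 in either setting. ITGB6 and ITGB8 are the beta chains of the ITGAV receptors known for activating latent TGF-beta. ITGB6 (GRCh37 chromosome 2, 160956178 to 161056824, minus strand) had 17.8, 15.2 and 14.3 CPM in vector EtOH, 4.62, 5.99 and 4.67 CPM in vector Dox, 33.8, 25.4 and 21.2 CPM in JUN EtOH, and 15.6, 10.5 and 11.8 CPM in JUN Dox. The vector Dox libraries were again the lowest of all. Induction lowered it 3.10-fold in vector cells (log2 fold change -1.63, SE 0.20, adjusted p = 1.89e-05), the largest fall of the 37 genes there, and 2.13-fold in JUN cells (-1.09, SE 0.18, adjusted p = 0.000582). JUN raised it 1.70-fold without induction (0.76, adjusted p = 0.004) and 2.47-fold with it (1.31, SE 0.20, adjusted p = 0.000138). A lncRNA not counted in the table overlaps 16.7% of its exon length on the same strand.

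ITGB8 (GRCh37 chromosome 7, 20370325 to 20455377, plus strand) had the largest rise with JUN and the largest fall on induction in JUN cells. Its levels were 30.7, 25.4 and 18.1 CPM in vector EtOH, 10.3, 17.6 and 12.1 CPM in vector Dox, 111, 103 and 72.0 CPM in JUN EtOH, and 27.6, 23.3 and 14.7 CPM in JUN Dox. The JUN EtOH libraries stood far above the rest, and the JUN Dox libraries overlapped both vector groups. JUN without induction gave a 3.86-fold rise (log2 fold change 1.95, SE 0.25, adjusted p = 3.58e-05), and induction in JUN cells a 4.39-fold fall (-2.13, SE 0.25, adjusted p = 3.17e-05). In vector cells the fall was 1.86-fold (-0.90, SE 0.26, adjusted p = 0.016), and it lost its call without vector EtOH replicate 1 or vector Dox replicates 1 or 3, with an adjusted p of up to 0.0812. With JUN under induction it was 1.64-fold higher (0.71, adjusted p = 0.0434), with overlapping groups, and 8 of 19 other settings lost that call (adjusted p up to 0.177), among them those without vector EtOH replicate 2, vector Dox replicates 1 or 3, JUN EtOH replicate 2 and JUN Dox replicates 1 or 2.

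ITGB4 (GRCh37 chromosome 17, 73717408 to 73753899, plus strand), the beta chain of hemidesmosomes, was lower with either manipulation. It had 812, 740 and 722 CPM in vector EtOH, 214, 341 and 332 CPM in vector Dox, 435, 429 and 483 CPM in JUN EtOH, and 178, 249 and 268 CPM in JUN Dox. No library of the other groups reached the vector EtOH range. The fall on induction was 2.56-fold in vector cells (log2 fold change -1.36, SE 0.18, adjusted p = 3.76e-05) and 1.94-fold in JUN cells (-0.96, SE 0.17, adjusted p = 0.0012). JUN lowered it 1.69-fold without induction (-0.75, SE 0.17, adjusted p = 0.0035). With induction the JUN effect was -0.35 and did not pass (adjusted p = 0.124), but without vector Dox replicate 1 it was -0.53 with an adjusted p of 0.0116. The fall on induction in vector cells was -1.18 without that library.

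ITGB1, the beta chain of most collagen, laminin and fibronectin receptors, followed ITGAV. Its levels were 518, 446 and 488 CPM in vector EtOH, 485, 496 and 415 CPM in vector Dox, 1322, 1210 and 962 CPM in JUN EtOH, and 1113, 903 and 609.6 CPM in JUN Dox. JUN raised it 2.41-fold without induction (log2 fold change 1.27, SE 0.18, adjusted p = 0.000104) and 1.88-fold with it (0.91, adjusted p = 0.00148), and the groups did not overlap. Induction gave -0.06 in vector cells (adjusted p = 0.846) and -0.41 in JUN cells (adjusted p = 0.126, or -0.63 and 0.0196 without JUN Dox replicate 1). The fall of ITGB1 in JUN cells also passed with the replicate block. ITGB5, a vitronectin receptor chain, was the only beta chain not called with JUN without induction (-0.11, adjusted p = 0.375). In JUN cells induction lowered ITGB5 1.39-fold (adjusted p = 0.00193), and under induction JUN lowered it 1.28-fold (adjusted p = 0.00814), from 92.6, 109 and 98.5 CPM to 71.5, 81.4 and 82.0 CPM.

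**Figure D2:**
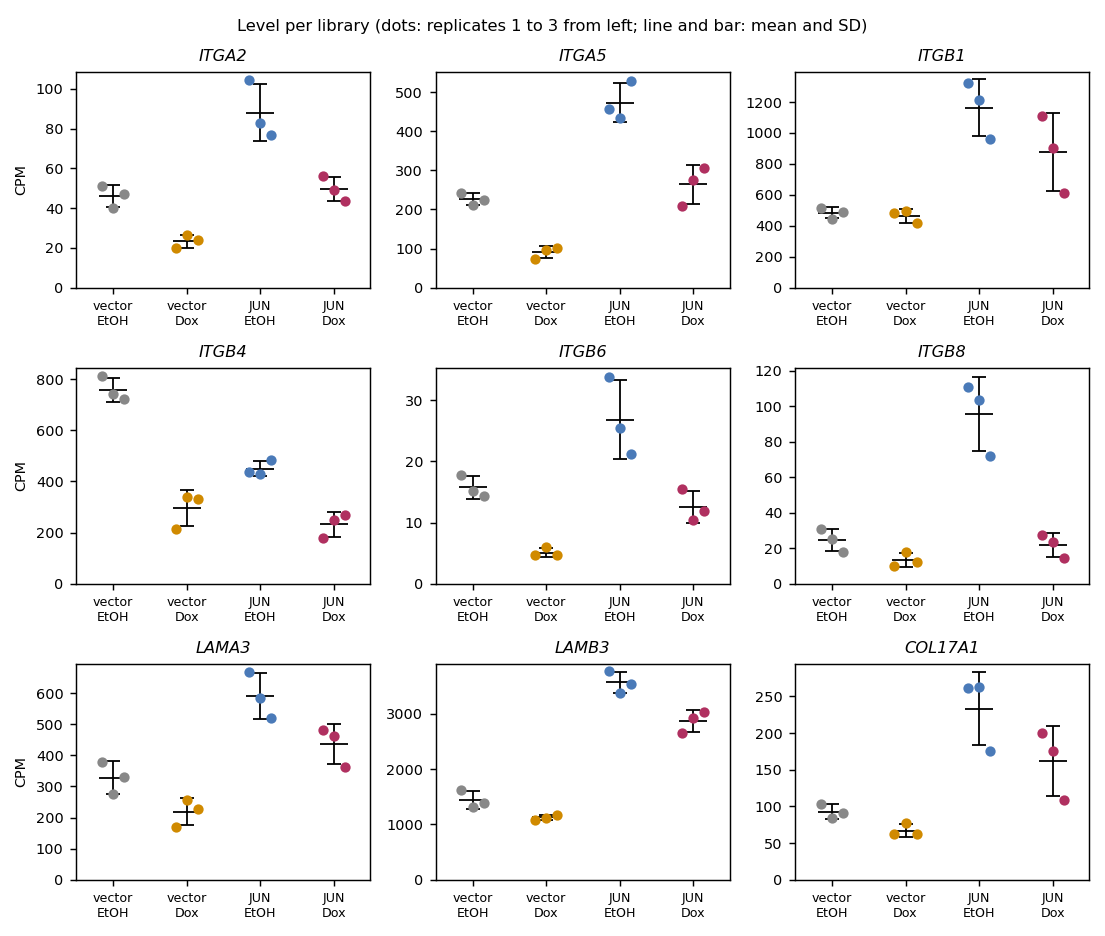
CPM (y axis, from 0) of 9 adhesion genes in the 4 groups (x axis), with a dot for each of 3 libraries and a line and bar for the mean and SD. By mean, every gene shown other than ITGB4 is lowest in vector Dox and highest in JUN EtOH, while ITGB4 is highest in vector EtOH.

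Most laminin genes fell on induction in vector cells, and most rose with JUN. In vector cells 5 of 6 chains were called lower on induction, and in JUN cells 2 of 6. At an unadjusted p under 0.05 the count was 5 of 6 in either, where 40.1% and 33.1% of all genes passed. DESeq2 also called LAMA3, LAMB1 and LAMB3 in JUN cells, and the interaction was called by edgeR for 0 of 6 chains. The difference between 5 and 2 calls is thus not read as a difference between vector and JUN cells. With JUN 4 of 6 were called higher without induction and 5 of 6 with it. LAMB3 (GRCh37 chromosome 1, 209788215 to 209825770, minus strand), a beta chain of the laminin in epithelial basement membranes, had 1621, 1320 and 1391 CPM in vector EtOH, 1088, 1122 and 1163 CPM in vector Dox, 3768, 3384 and 3546 CPM in JUN EtOH, and 2651, 2916 and 3036 CPM in JUN Dox. Every JUN library lay above every vector library. JUN raised it 2.47-fold without induction (log2 fold change 1.30, SE 0.12, adjusted p = 1.24e-06) and 2.55-fold with it (1.35, SE 0.12, adjusted p = 8.78e-07). The fall on induction in vector cells was 1.28-fold (-0.36, adjusted p = 0.0309), but leaving out vector EtOH replicate 1 or 3 or any vector Dox library ended that call (adjusted p up to 0.155). In JUN cells it was -0.31 (adjusted p = 0.0723).

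LAMA3, the alpha chain that joins LAMB3 in hemidesmosomal laminin, had 380, 275 and 331 CPM in vector EtOH, 171, 257 and 228 CPM in vector Dox, 669.7, 585 and 521 CPM in JUN EtOH, and 483, 464 and 362 CPM in JUN Dox. It was 1.80-fold higher with JUN without induction (adjusted p = 0.00121) and 1.99-fold higher with it (adjusted p = 0.00037). Induction lowered it in vector cells (log2 fold change -0.59, adjusted p = 0.0153), a call lost without vector EtOH replicate 1 (adjusted p = 0.0772). In JUN cells it was -0.44 (adjusted p = 0.0748), which passed without vector Dox replicate 1 (adjusted p = 0.028). LAMB2, a beta chain that can replace LAMB1, was called in all 4 comparisons, 1.81-fold and 1.43-fold lower on induction in vector and JUN cells and 1.26-fold and 1.60-fold higher with JUN without and with induction. Its levels were 72.6, 76.5 and 77.6 CPM in vector EtOH, 35.5, 43.4 and 46.3 CPM in vector Dox, 93.9, 93.6 and 98.2 CPM in JUN EtOH, and 63.5, 65.3 and 70.9 CPM in JUN Dox, so that no group overlapped another. LAMA5, the alpha chain of the most widespread adult laminins, was 1.68-fold lower on induction in vector cells (adjusted p = 0.00426) and 1.52-fold lower in JUN cells (adjusted p = 0.0218), and was not called with JUN (-0.32 and -0.17 without and with induction). Without vector Dox replicate 1 both JUN effects on LAMA5 passed, at -0.32 (adjusted p = 0.0143) and -0.39 (adjusted p = 0.0127). The log2 fold change of LAMA5 on induction in vector cells was then -0.53, against -0.75 with that library. The call in JUN cells was lost without JUN EtOH replicate 1 or 2 or JUN Dox replicate 1 or 3 (adjusted p up to 0.0678). LAMC1, the common gamma chain, was not called on induction (0.12 and 0.01), but in vector cells it was 0.33 with an adjusted p of 0.0373 without vector Dox replicate 1. With JUN it was 1.67-fold and 1.55-fold higher without and with induction. The log2 fold change of the second was 0.63, and 0.43 without vector Dox replicate 1. LAMB1 was 1.44-fold lower on induction in vector cells and 1.39-fold higher with JUN under induction. Without vector Dox replicate 1 it was also called higher with JUN without induction (0.29, adjusted p = 0.0181) and lower on induction in JUN cells (-0.34, adjusted p = 0.0119).

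The type IV collagens came as head-to-head pairs, COL4A1 with COL4A2 and COL4A5 with COL4A6, whose RefSeq starts lie 126 and 379 bases apart on opposite strands. COL4A1 and COL4A2 form the network found in all basement membranes, and COL4A5 and COL4A6 the one of some epithelia. COL4A5 was lower on induction, 1.70-fold in vector cells (adjusted p = 0.000571) and 1.47-fold in JUN cells (adjusted p = 0.00722), and higher with JUN, 1.64-fold without induction (adjusted p = 0.000712) and 1.90-fold with it (adjusted p = 9.59e-05). COL4A6 took the same 4 directions with adjusted p of 0.0181 to 0.0416, and each of those 4 calls was lost when some single libraries were left out. COL4A1 was the only gene of the 37 called higher on induction in vector cells, from 72.2, 54.7 and 66.7 CPM to 86.1, 102 and 89.3 CPM (1.43-fold, adjusted p = 0.0022). In JUN cells it had 91.1, 80.7 and 83.7 CPM without and 78.3, 75.8 and 80.3 CPM with induction. The groups did not overlap in either pair, but in JUN cells the log2 fold change of -0.13 did not pass (adjusted p = 0.465). With JUN and no induction COL4A1 was 1.32-fold higher (adjusted p = 0.00975). COL4A2 was called only with JUN without induction, where it was 1.25-fold higher (adjusted p = 0.0453), and 8 of 19 other settings lost that call.

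Among the other basement membrane components only perlecan was called. HSPG2, its gene, had 176, 163 and 163 CPM in vector EtOH, 52.6, 135 and 145 CPM in vector Dox, 264, 266 and 368 CPM in JUN EtOH, and 192, 290 and 319 CPM in JUN Dox. Vector Dox replicate 1 was far below the rest. JUN raised it 2.40-fold under induction (log2 fold change 1.27, SE 0.29, adjusted p = 0.00335), or by 0.94 with an adjusted p of 0.00146 without that library. Without induction it was 1.79-fold higher (adjusted p = 0.0289), a call lost in 6 of 19 other settings (adjusted p up to 0.105), those without any 1 of the vector EtOH libraries, without JUN EtOH replicate 3, with no filter on low counts and with DESeq2. LDLRAD2 on the opposite strand overlaps 11.7% of the exon length of HSPG2, and the sources do not state that counting used strand. The nidogens were scarce, with NID2 at 0.953 to 1.77 CPM and NID1 at 0 to 0.331 CPM, against a floor of 3 counts at 0.107 to 0.15 CPM. NID1 was therefore not tested. NID2, AGRN (agrin) and DAG1 (the laminin receptor dystroglycan) were not called in any comparison, with log2 fold changes of -0.47 to 0.25. DAG1 passed with JUN under induction without vector Dox replicate 1 (-0.35, adjusted p = 0.0366, against -0.21) and on induction in vector cells without vector Dox replicate 2 (adjusted p = 0.0364). RTRAF overlaps 30.7% of the exon length of NID2 on the opposite strand at 1250 mean counts against 30.5, so counts of NID2 may hold reads of its neighbor.

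Of the hemidesmosome and anchoring fibril genes, COL17A1 and DST rose with JUN in either setting, and COL7A1 was called lower with JUN only without induction. COL17A1 (GRCh37 chromosome 10, 105791044 to 105845638, minus strand), the transmembrane collagen of hemidesmosomes, had 104, 84.1 and 90.4 CPM in vector EtOH, 62.4, 76.8 and 62.0 CPM in vector Dox, 262, 262 and 176 CPM in JUN EtOH, and 200.1, 176 and 109 CPM in JUN Dox. JUN libraries lay above vector libraries throughout. The rise was 2.52-fold without induction (log2 fold change 1.33, SE 0.20, adjusted p = 0.000134) and 2.41-fold with it (1.27, SE 0.20, adjusted p = 0.000211). On induction the log2 fold change was -0.47 in vector cells (adjusted p = 0.0901) and -0.53 in JUN cells (adjusted p = 0.0686). Both falls of COL17A1 passed with the replicate block and in some other settings. COL7A1, the collagen of anchoring fibrils, had low counts, with 2.81, 2.25 and 1.57 CPM in vector EtOH, 1.40, 0.992 and 1.32 CPM in vector Dox, 1.10, 0.716 and 1.03 CPM in JUN EtOH, and 0.753, 0.821 and 0.604 CPM in JUN Dox. At 15 to 74 counts a library its calls rest on few reads. It was 2.34-fold lower with JUN without induction (-1.22, SE 0.29, adjusted p = 0.00409) and 1.79-fold lower on induction in vector cells (adjusted p = 0.0328). The latter call was lost when only the 6 libraries compared were fitted and without vector EtOH replicate 1 or 2 or vector Dox replicate 2 or 3 (-0.62 to -1.04 over all settings, adjusted p up to 0.17). With JUN under induction the log2 fold change of COL7A1 was -0.78 and did not pass (adjusted p = 0.0649). DST (dystonin), a plakin that ties keratin to hemidesmosomes, was 1.70-fold and 1.94-fold higher with JUN (adjusted p = 0.00543 and 0.0013) and not called on induction, except in vector cells without vector Dox replicate 2 (adjusted p = 0.0468). The JUN effect on DST under induction was 0.96 on the log2 scale, and 0.71 without vector Dox replicate 1. PLEC (plectin) and CD151 were not called. PLEC varied widely among vector Dox libraries (1520, 3669 and 4327 CPM), and its 95% interval on induction in vector cells ran from -1.07 to 0.28 on the log2 scale. Over the 8 hemidesmosome genes in the wider sense (ITGA6, ITGB4, LAMA3, LAMB3, COL17A1, DST, PLEC and CD151), JUN without induction raised 5 and lowered 1, and induction in vector cells lowered 3 and raised 0.

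None of the focal adhesion adaptors was called on induction by edgeR, 0 of 8 in vector cells and 0 of 8 in JUN cells. At an unadjusted p under 0.05 the counts were 1 and 0, where 40.1% and 33.1% of all genes passed. JUN raised 4 of 8 without induction (50%, against 39% of all genes called) and 3 of 8 with it (37.5%, against 35.6%). The second share was near that of all genes. PXN (paxillin) went from 325, 278 and 306 CPM to 461, 433 and 454 CPM with JUN without induction (1.48-fold, adjusted p = 0.000537) and from 313, 348 and 352 CPM to 448, 455 and 493 CPM with induction (1.38-fold, adjusted p = 0.0026). PTK2 (focal adhesion kinase) was 1.28-fold and 1.19-fold higher with JUN (adjusted p = 0.00503 and 0.0339), and ILK (integrin-linked kinase) 1.27-fold and 1.35-fold (adjusted p = 0.0184 and 0.00552). The second PTK2 call was lost in 6 of 19 other settings, among them that without vector Dox replicate 1 (0.21, adjusted p = 0.0752). ILK shares 68.1% of its exon length with TAF10 on the opposite strand, at 1482 and 1410 mean counts, and PXN shares 23.7% with PXN-AS1, so reads of these neighbors may be counted for both. PXN-AS1 itself was 1.44-fold higher with JUN without induction, whereas TAF10 had a log2 fold change of -0.28 there (adjusted p = 0.122). FERMT1, the epithelial kindlin, was 1.29-fold higher with JUN without induction (adjusted p = 0.0388), which 7 of 19 other settings did not call. FERMT2, TLN1 (talin), VCL (vinculin) and ZYX (zyxin) were not called in any pairwise comparison. With JUN, TLN1 had log2 fold changes of 0.48 without induction (adjusted p = 0.121) and 0.63 with it (adjusted p = 0.0517). The first was called without vector Dox replicate 1 (adjusted p = 0.0304) and when only the 6 libraries compared were fitted, and the second in 8 of 19 other settings, including the replicate block and those without vector Dox replicate 2 or 3, JUN EtOH replicate 3 or JUN Dox replicate 1 (0.38 to 0.79 over all settings, adjusted p 0.0263 to 0.179). When YAP5SA was induced in vector cells the FERMT2 value was 0.27 on the log2 scale (95% interval 0.05 to 0.49, adjusted p = 0.0651), which passed with the replicate block and without JUN Dox replicate 1 (lowest adjusted p = 0.0368). ZYX passed with JUN under induction without JUN Dox replicate 3 (adjusted p = 0.0375). On induction in vector cells the 95% interval was -0.48 to 0.53 for TLN1, -0.38 to 0.24 for VCL and -0.40 to 0.28 for ZYX on the log2 scale. These intervals are not adjusted for the number of genes, and changes of the sizes within them are not excluded.

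Induction in vector cells and in JUN cells share no library, nor do the JUN effects without and with induction, so their calls can be set against each other. Of the 14 genes called on induction in vector cells, 9 (64.3%) were called in the same direction in JUN cells, which is 90.0% of the 10 called there, and 0 were called in opposite directions. Over all genes tested 2401 were shared, 54.0% and 75.8% of the calls. Of 25 genes called with JUN without induction, 20 (80.0%) were called in the same direction with induction, 90.9% of the 22 called there, against 67.1% and 73.4% over all genes (3867 shared). The interaction, which subtracts the log2 effect of induction in vector cells from that in JUN cells, was called by edgeR for 0 of 37 genes, against 1.12% of all genes, and for 4 of 37 at an unadjusted p under 0.05, against 9% of all genes. DESeq2 called 2 (ITGB8 and COL4A1). The 3 genes with the lowest p were COL4A1 (-0.64, SE 0.15, 95% interval -0.97 to -0.32, adjusted p = 0.0628), ITGB8 (-1.24, SE 0.36, 95% interval -2.0 to -0.48, adjusted p = 0.141) and LAMB2 (0.34, SE 0.14, 95% interval 0.04 to 0.64, adjusted p = 0.453). For ITGA5 the interval was 0.03 to 0.94 (adjusted p = 0.492). With edgeR, COL4A1 was called without vector Dox replicate 1 (-0.68, adjusted p = 0.0313) and ITGB8 with the replicate block.

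**Figure D3:**
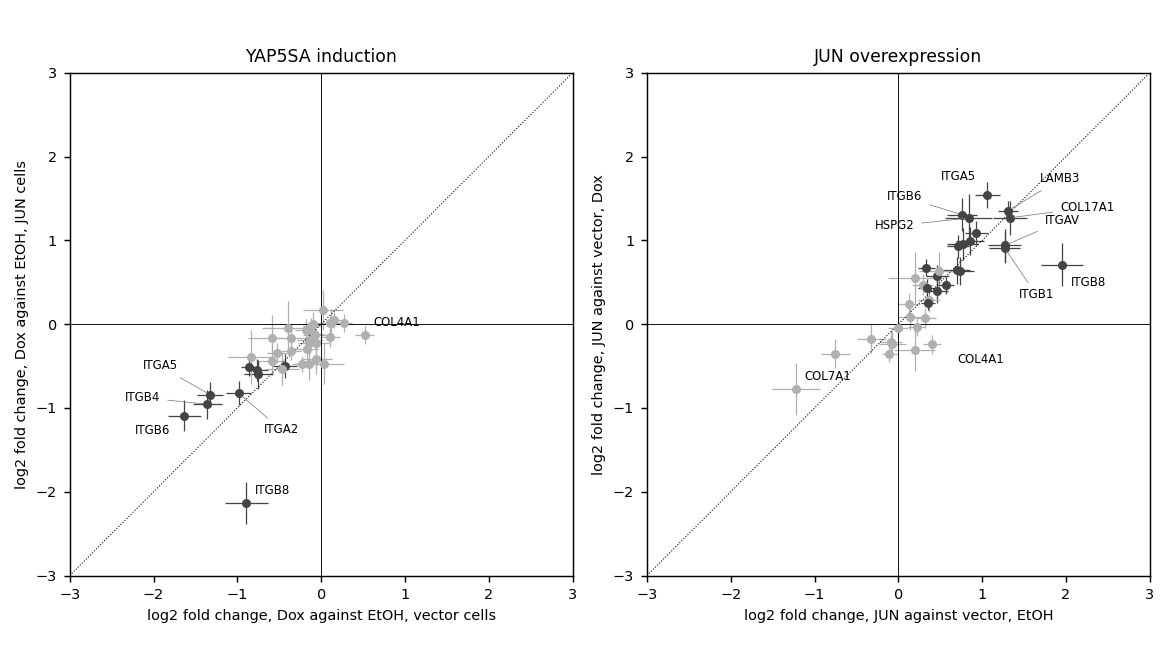
Log2 fold changes of the 37 adhesion genes for YAP5SA induction (left, vector cells on x and JUN cells on y) and JUN overexpression (right, without induction on x and with it on y). Bars are the SE, dark points were called in both comparisons and the dotted line marks equal values; ITGB8 lies below the line in both panels (-0.90 and -2.13 on the left).

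Ratios were computed within each library for genes whose products pair, and also for the kindlin genes FERMT1 and FERMT2, whose products do not pair. ITGB4 to ITGA6, the chains of the hemidesmosomal integrin, was 3.04 ± 0.27 (ratio of CPM, mean and SD, n = 3) for vector EtOH, 1.25 ± 0.12 for vector Dox, 1.30 ± 0.15 for JUN EtOH and 0.676 ± 0.198 for JUN Dox. Vector EtOH libraries were all above 2.8, and JUN Dox libraries all under the other groups. ITGB6 to ITGAV was 0.194 ± 0.017, 0.0688 ± 0.0047, 0.135 ± 0.009 and 0.0934 ± 0.0241 in the same order. ITGB8 to ITGAV was 0.303 ± 0.070, 0.178 ± 0.036, 0.483 ± 0.047 and 0.156 ± 0.017, highest in JUN EtOH. ITGB1 to ITGAV, in contrast, stayed at means of 5.94 to 6.32 in all 4 groups, with ranges that overlapped. ITGB5 to ITGAV was 1.45 ± 0.13 and 1.36 ± 0.02 in the vector groups and 0.563 ± 0.084 and 0.607 ± 0.236 in the JUN groups. COL4A1 to COL4A2 was 0.368 ± 0.033 in vector Dox against means of 0.274 to 0.296 in the other groups. COL4A5 to COL4A6 had means of 0.798 to 1.19, and FERMT1 to FERMT2 of 1.36 to 2.01. No test was made of these ratios.

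**Figure D4:**
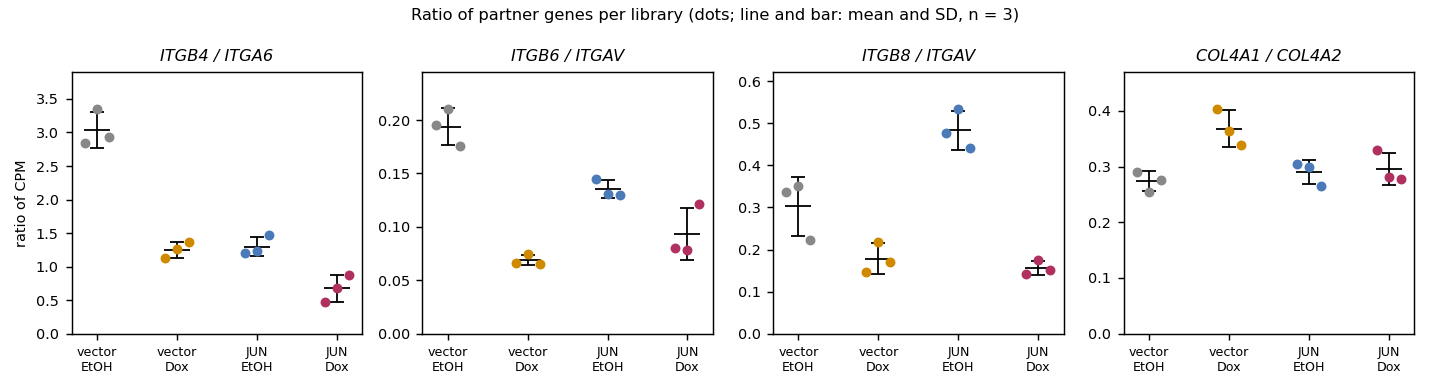
Ratio of CPM within each library (y axis, from 0) for 4 pairs of genes in the 4 groups (x axis), with a dot for each library and a line and bar for the mean and SD of 3 libraries. ITGB4 to ITGA6 falls from a mean of 3.04 in vector EtOH to 0.676 in JUN Dox, and ITGB8 to ITGAV is highest in JUN EtOH at 0.483.

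With both manipulations together the adhesion genes did not return to 1 common level. Compared by range alone, with no test, 15 of 37 genes were higher in every JUN Dox library than in any vector EtOH library, 6 were lower and 16 overlapped. The share of all genes without overlap was not computed for this pair of groups. In the pairwise comparisons that share was 39.3 to 57.8%, so these counts are not read as particular to adhesion genes. The 6 lower genes were ITGB4, ITGB5, LAMA5, LAMB2, DAG1 and COL7A1. Among the 15 higher genes were LAMB3 (2651 to 3036 CPM against 1320 to 1621), ITGB1, ITGAV, ITGA3, ITGA6, LAMC1, COL17A1 and DST. ITGA2, ITGA5, ITGB6, ITGB8, COL4A5 and COL4A6 overlapped the vector EtOH range, as did LAMA3.

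Levels of different genes were set side by side per length of transcript. That does not correct for reads across exon junctions, which are largely lost here. Exon number differs among genes, with 113 merged exons in COL7A1 and 11 in ZYX, and its part in the order was not tested. In vector EtOH, CPM per kb of the canonical transcript was highest for LAMB3 (360 ± 39.2), PLEC (282 ± 32.1), CD151 (155 ± 12.6), ZYX (136 ± 6.04), ITGB1 (129.6 ± 9.74), ITGB4 (128.5 ± 8.05) and ITGA3 (121 ± 9.35). From ZYX to ITGA3, neighbors in that order differed by less than the larger SD of each pair. Next came AGRN at 109 ± 9.87, and then a gap to PXN at 58.1 ± 4.60. Among integrins the order then ran ITGA5 (53.3), ITGA6 (43.2), ITGB5 (26.4), ITGAV (11.6), ITGA2 (5.88), ITGB6 (3.40) and ITGB8 (2.75), where ITGB6 and ITGB8 differed by less than the SD of ITGB8 (0.705). COL7A1 (0.239), NID2 (0.273) and NID1 (0.0076) stood at the lower end. In JUN EtOH the order began with LAMB3 at 888, PLEC at 323 and ITGB1 at 312 CPM per kb.

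Beyond the 38 genes, 60 other adhesion genes were looked up, of which 54 were tested. Induction raised 11 and lowered 7 of them in vector cells, 33.3% called against 30.1% of all genes, and raised 4 and lowered 11 in JUN cells, 27.8% against 21.4%. JUN raised 17 and lowered 8 without induction, 46.3% against 39% of all genes, and raised 14 and lowered 15 with it, 53.7% against 35.6%. The first of these shares was near that of all genes. The tensins TNS1 and TNS2, adaptors that bind integrin tails and actin, fell on induction in vector cells. TNS1 went from 22.7, 19.4 and 20.3 CPM in vector EtOH to 1.57, 3.97 and 3.97 CPM in vector Dox (log2 fold change -2.71, adjusted p = 1.18e-06), and TNS2 from 35.2, 33.2 and 34.6 CPM to 4.40, 6.08 and 6.49 CPM (-2.60, adjusted p = 9.08e-09). TNS4 fell by 0.67 on induction in vector cells (adjusted p = 0.00877) and by 1.17 in JUN cells (adjusted p = 0.000252), while TNS3 was not called in vector cells (0.19, adjusted p = 0.345) and fell by 0.65 in JUN cells (adjusted p = 0.00483). The talin TLN2 rose with induction and with JUN, most with JUN under induction (1.37, adjusted p = 2.66e-06). The syndecans SDC1 and SDC4, cell-surface proteoglycans that act with integrins, rose with JUN without induction, SDC1 from 306, 269 and 275 CPM to 1088, 1100 and 1013 CPM (1.91, adjusted p = 1.97e-08) and SDC4 by 1.15 (adjusted p = 2.41e-05). SDC4 (-1.11, adjusted p = 0.0103) and TNS2 (1.14, adjusted p = 0.00967) were the 2 genes of this list called in the interaction, 3.7% of 54 against 1.12% of all genes.

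Among basement membrane genes of the wider list, NTN4 (netrin-4, which binds laminin) rose in all 4 comparisons, by 1.14 and 0.68 on induction in vector and JUN cells and by 1.87 and 1.41 with JUN. TINAGL1 rose on induction in vector cells (1.89, adjusted p = 2.74e-05) and was lower with JUN under induction (-1.15, adjusted p = 0.00144). FBLN1 (fibulin-1) was lower with JUN without and with induction (-1.34 and -1.27, adjusted p = 9.01e-08 and 1.51e-07). BCAM, a receptor for LAMA5 laminins, had 1.60 to 1.97 CPM in vector EtOH and 4.34 to 6.40 CPM in vector Dox (1.57, adjusted p = 0.000966), and was lower with JUN without induction (-1.45, adjusted p = 0.00588). ITGA10 was lower in all 4 comparisons, most on induction in vector cells (-1.80, adjusted p = 9.43e-05). Its mean was 4.67 CPM in vector EtOH and 0.711 CPM in JUN Dox, and at 16 to 130 counts a library its calls rest on few reads. The paxillin relatives LPXN and TGFB1I1 were higher with JUN, LPXN by 1.02 without induction (adjusted p = 0.000172) and TGFB1I1 by 1.02 with it (adjusted p = 6.47e-05). ITGA7, ITGA11, ITGB3, LAMA4 and PARVB each passed with a log2 fold change of at least 1 in 1 or more comparisons, at levels no higher than 1.83 CPM in any library.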

How the data were processed

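RNA was extracted from 12 cultures of MCF10A cells, 3 in each of 4 groups. The authors sequenced poly(A) RNA as single-end reads, per the study's methods, trimmed them with Cutadapt, aligned them to hg19 with Bowtie2 and counted reads per gene with countOverlaps, so the deposited values are raw counts, not normalized. Bowtie2 does not split reads over introns, so reads across exon junctions are largely lost. The annotation and any use of strand are not given in the sources used here. Of 23459 Entrez IDs, 99.4% matched a symbol.

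Counts were analyzed with edgeR 4.0.16 (R 4.3.3): filterByExpr (minimum count 10, minimum total 15), TMM, and 1 robust quasi-likelihood model over 12 libraries with 4 contrasts and the interaction. P-values were adjusted by Benjamini-Hochberg over 14775 genes and called under 0.05. The biological coefficient of variation was 12.5%. The SE was derived from the log2 fold change and its F statistic. CPM used TMM-scaled library sizes. The floor of 3 counts covers counting error only. Recovery was checked on simulated counts with 200 changed genes. Positions and transcript lengths are those of GENCODE v44lift37 (GRCh37), and promoter windows those of RefSeq (GRCh38.p14).

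Full statistics were given for called members whose log2 fold change was 1 or more in size, or the 4 largest, in the interaction for the 3 with the lowest p, and other adhesion genes were named where called at that size. Members, lists and rules were chosen with earlier results of these data known. Alternatives were DESeq2 1.42.0, RLE and upper-quartile factors, no filter, a mean of at least 5 CPM, a replicate block, only the 6 libraries compared, and each library left out.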

Additional observations from a re-analysis of the deposited data

Results flagged for a closer look

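COL4A1 stood out because its groups separated in opposite directions in the 2 backgrounds. On YAP5SA induction every library was higher in vector cells (log2 fold change 0.52) and every library lower in JUN cells (-0.13). With JUN every library was higher without induction (0.40) and every library lower under induction (-0.24). The difference itself was tested as the interaction and was -0.64 (SE 0.15), with an edgeR adjusted p of 0.0628, and 0.00687 to 0.197 over the other settings. Of the 4 separate effects, those in JUN cells and under induction did not pass the test (adjusted p = 0.465 and 0.0921).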

How the results depend on the processing

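No alternative reversed a called change. The number of the 37 genes called ranged, with 1 library left out, from 9 to 16 for induction in vector cells (9 without vector EtOH replicate 1, against 14), 19 to 28 for JUN without induction, 8 to 13 for induction in JUN cells, 19 to 23 for JUN under induction and 0 to 1 for the interaction (COL4A1 without vector Dox replicate 1). In the interaction DESeq2 called 2, ITGB8 and COL4A1. Of the genes called, 9 of 14, 17 of 25, 8 of 10 and 18 of 22 kept their call in every alternative run, in the order of the pairwise comparisons. The lost calls were ITGB8, LAMA3, LAMB3, COL4A6 and COL7A1, then ITGA6, LAMB2, COL4A1, COL4A2, COL4A6, HSPG2, FERMT1 and ILK, then LAMA5 and COL4A6, then ITGB5, ITGB8, COL4A6 and PTK2. Beyond these, 7, 4, 6 and 6 uncalled genes passed in some alternative. The cause of these losses was not tested. Over all genes, the share of interaction calls that were higher was 26.1%, and 36.4% without JUN Dox replicate 1. RLE and upper-quartile factors moved the median of all genes by at most 0.048.

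With the replicate number as a replicate block, 1 gene (ITGB8) was called in the interaction, and 17, 24, 13 and 23 in the pairwise comparisons. Deviations from the group mean correlated between same-numbered libraries at -0.258 to 0.466 (median 0.088, 7 of 18 pairs above 0.1). Between others the correlations were -0.47 to 0.315 (median -0.0478, 5 of 36 pairs above 0.1). Same-numbered pairs were thus higher at the median, with overlapping ranges. Pairing of the cultures by number was not settled, and the model of the main results used none. Low counts limit NID1, NID2 and COL7A1, which had at most 74 counts in a library.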
